A study of Mus musculus with 6 samples.

Results

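Cluster 1 of the deposited clustering is a group of CD8 T cells from MB49 tumours. Its members are the cells that the deposited metadata assign to cluster number 1, which gives 3591 of 26698 cells. The tumour line, MB49, was derived from mouse urothelial carcinoma. Wild-type C57BL/6 mice of both sexes, listed as 6 to 8 weeks old, received 500000 MB49 cells under the skin, and live CD3+ CD8+ CD4- cells were sorted from the tumours on day 10. No other treatment or allele is listed, so the groups differ in host sex, with 3 female and 3 male 10x Genomics 3' libraries, numbered 2, 5 and 6 (female) and 1, 3 and 4 (male).

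CD8 T cells that enter a tumour can remain in a naive or memory-like state, become cytotoxic effector cells, or pass into exhaustion. Tcf7 encodes TCF-1, a transcription factor that maintains memory and progenitor states, and Slamf6 encodes a surface receptor carried by such cells. S100a4 and S100a6 encode small calcium-binding proteins that rise as T cells become effectors, and Ccr2 encodes a receptor for inflammatory chemokines. A transitional cell carries genes of the starting and the final state together, although a level measured over many cells cannot show this on its own.

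The cells per library were 295, 594 and 221 in female libraries 2, 5 and 6, and 848, 411 and 1222 in male libraries 1, 3 and 4. Each summed profile held 1638963 to 5938431 UMIs (unique molecular identifiers, the counted molecules). Cluster 1 cells had a median of 6996, 6488 and 6746 UMIs in female libraries 2, 5 and 6. The medians were 5217.5, 6184 and 4319.5 in male libraries 1, 3 and 4, all below the female ones (exact two-sided permutation test p = 0.10, the smallest that 3 against 3 allows). In all, 84 barcodes occurred in more than 1 library, and 28 cluster 1 cells carried one. The share of cells in cluster 1 was 10.2%, 12.02% and 10.4% in female libraries 2, 5 and 6 and 13.4%, 12.5% and 17.1% in male libraries 1, 3 and 4. Genes that mark the cluster differed by sex, so no comparison is drawn from these shares.

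Levels are CPM, the UMI counts summed per cluster and library and scaled to a common total. All 6 markers of the label were found in the cluster. Cd8b1, the beta chain of the CD8 coreceptor, had 922 ± 70.7 CPM (SD over 6 libraries) in cluster 1, 904 in cluster 0 and 491 in cluster 7. After every cell was thinned to 3000 UMIs, 88.1% of 3127 cluster 1 cells had a Cd8b1 UMI, against 20.97% in cluster 2, which is low in this chain, at unthinned medians of 5345 and 5936 UMIs. Unthinned, the shares were 92.2% and 32.1%. Tcf7 was intermediate, with 66.3 to 229 CPM and a median of 151 in cluster 1. Its range was 311 to 429 in cluster 7 and 9.03 to 48.5 in cluster 0, so the 3 clusters did not overlap. Slamf6 had 115 CPM in cluster 1 and in cluster 7, which overlapped, and 64.9 CPM in cluster 0. Ccr2 was highest in cluster 1 among the 11 clusters by its mean, with 201 to 408 CPM, though its range overlapped that of cluster 0 (120 to 218 CPM).

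**Figure D1:**
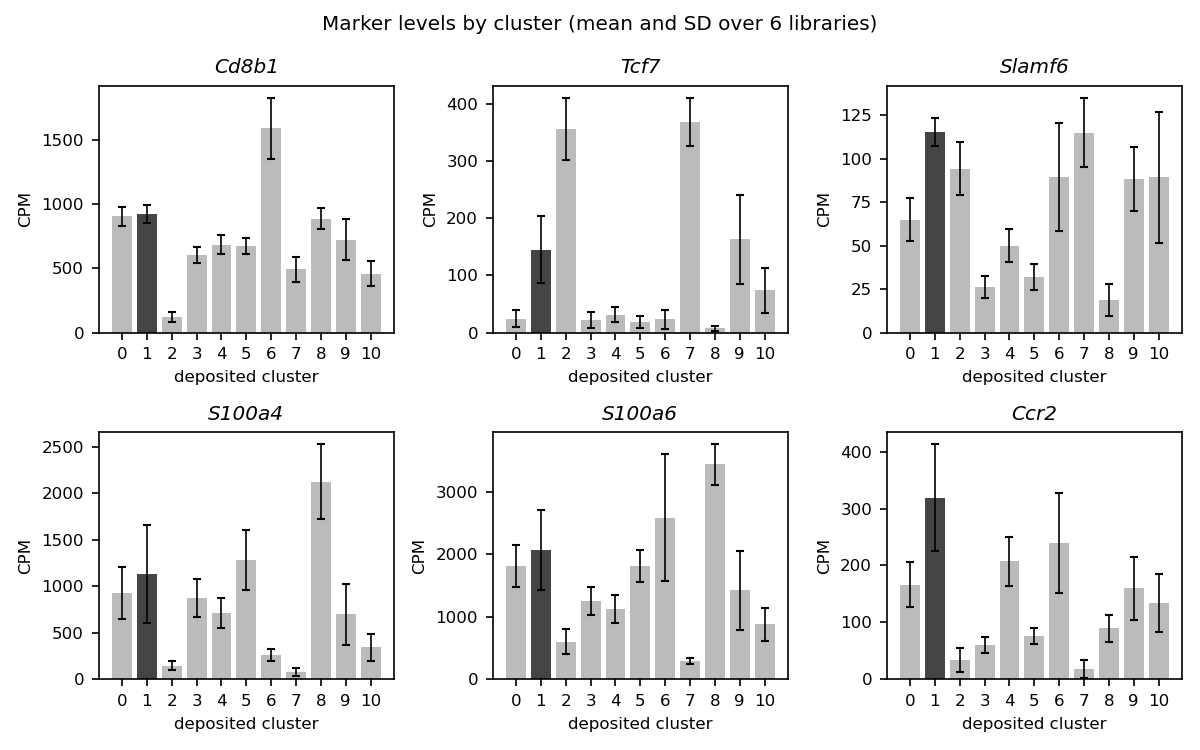
Levels of the 6 label markers (CPM, vertical axes) in the 11 deposited clusters (horizontal axes), with bars for the mean and lines for the SD over 6 libraries. Cluster 1 (dark) has 145 CPM of Tcf7, between 369 in cluster 7 and 24.3 in cluster 0, and 320 CPM of Ccr2, the highest mean.

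S100a4 and S100a6 were at the level of cluster 0. S100a4 ranged from 605 to 1789 CPM with a median of 1097 in cluster 1, from 46.0 to 145 in cluster 7 and from 488 to 1233 in cluster 0. S100a6 ranged from 1374 to 2765 CPM in cluster 1, from 223 to 352 in cluster 7 and from 1340 to 2203 in cluster 0. Cluster 1 was therefore clear of cluster 7 in both genes and overlapped cluster 0. Both promoters are shown because the 2 genes moved together by sex in the cluster. The windows of RefSeq (GRCm38.p6, plus strand, 250 bases before to 50 after the start) lie at chr3:90603520-90603819 for S100a4 and chr3:90612644-90612943 for S100a6, with 9124 bases between their starts. Capitals mark a RUNX motif.

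S100a4: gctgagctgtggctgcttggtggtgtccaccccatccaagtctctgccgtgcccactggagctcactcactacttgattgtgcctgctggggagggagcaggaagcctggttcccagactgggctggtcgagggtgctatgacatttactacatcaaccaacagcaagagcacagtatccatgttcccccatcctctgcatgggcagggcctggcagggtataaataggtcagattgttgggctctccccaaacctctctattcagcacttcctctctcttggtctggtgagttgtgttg
S100a6: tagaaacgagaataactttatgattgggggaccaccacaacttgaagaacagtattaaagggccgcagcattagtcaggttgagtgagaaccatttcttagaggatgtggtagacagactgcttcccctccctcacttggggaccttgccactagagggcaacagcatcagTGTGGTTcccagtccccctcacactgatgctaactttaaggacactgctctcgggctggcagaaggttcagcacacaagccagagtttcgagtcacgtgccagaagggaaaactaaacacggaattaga

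In these windows 4 letter motifs were searched on either strand, which were TGANTCA (AP-1), CTTTGAT (TCF/LEF), TGTGGTT (RUNX) and TCACACC (T-box). None of the 4 was found in the S100a4 window, and S100a6 had TGTGGTT 79 bases before its start. TGTGGTT was in 5.27% of all 32851 windows, TGANTCA in 7.81%, CTTTGAT in 3.73% and TCACACC in 3.98%. A match is a description of letters and not of binding.

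Where cluster 1 lies between cluster 7, which holds the naive and central memory genes, and cluster 0, which holds the exhaustion genes, was measured on the genes that separate those 2 clusters. In total 412 genes were at least 2-fold higher in cluster 0 in every library (2.64% of 15601) and 311 were at least 2-fold higher in cluster 7 (1.99%). A position of 0 stands for the level of cluster 7 and 1 for that of cluster 0, on the log2(CPM + 1) scale. The median over the 723 genes was 0.558 ± 0.104 (SD over 6 libraries). Cluster 1 lay between 0.25 and 0.75 for 371 genes, nearer to cluster 7 for 103 and nearer to cluster 0 for 147. A further 38 genes lay past cluster 7 and 64 past cluster 0. The choice of genes used clusters 7 and 0 alone, and all values are a description.

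Gene groups differed in where they lay. The median position was 1.05 over 9 genes of the S100, annexin and galectin list, 0.885 over 6 cytoskeleton and adhesion genes and 0.723 over 15 effector genes. It was 0.671 over 7 stem or progenitor genes, 0.607 over 11 naive or central memory genes and 0.594 over 10 exhaustion genes. Interferon-stimulated genes (12) and hypoxia genes (5) lay nearest to cluster 7, at 0.256 and 0.262, and T cell receptor response genes (13) at 0.385. Cluster 1 thus had S100 and galectin levels like those of cluster 0, with exhaustion genes about midway.

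Single genes show both ends. S1pr1, the receptor that lets T cells leave tissue, had 90.2 to 189 CPM in cluster 1, 140 to 175 in cluster 7 and 10.95 to 32.04 in cluster 0, and stood at position 0.02. Klf2, the transcription factor that drives S1pr1, had 506 to 727 CPM in cluster 1, 412 to 709 in cluster 7 and 103 to 265 in cluster 0. Both genes overlapped cluster 7 and did not overlap cluster 0. At the cluster 0 end, Gzmk, a granzyme, had 94.8 to 163 CPM in cluster 1, 1.02 to 9.78 in cluster 7 and 74.2 to 122 in cluster 0. Pdcd1 (PD-1, an inhibitory receptor) lay in between, at 127 to 362 CPM against 23.9 to 104 and 388 to 588.

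Against cluster 7, 155 genes were at least 2-fold higher in cluster 1 in every library (0.994% of 15601) and 141 at least 2-fold lower (0.904%). This split depended on the scaling, since without edgeR's TMM step 235 were higher and 77 lower. The higher genes included Gzmk, Lgals3 (galectin-3), S100a4, Ccr2, Cxcr6, a chemokine receptor of tissue T cells, and Klrg1, a receptor of effector cells. Lgals3 had 518 to 1267 CPM in cluster 1 and 27.6 to 66.4 in cluster 7, a mean log2 difference of 4.07 ± 0.41 (SD, n = 6). The lower genes included Igfbp4, Srm, which makes spermidine, and Xcl1, a chemokine for cross-presenting dendritic cells. Xcl1 had 11.99 to 33.1 CPM in cluster 1 and 66.4 to 203 in cluster 7. Of 24 effector genes, 15 were 2-fold higher in cluster 1 and none lower, with a list median log2 difference of 1.74 against 0.04 over 8925 genes of at least 5 CPM. Of 14 naive or central memory genes, 4 were 2-fold lower and none higher (median -1.04). Of 14 stem or progenitor genes, 6 were 2-fold lower and 1 higher (median -1.67), so the levels of Tcf7 and Slamf6 do not stand for that list.

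Against cluster 0, 98 genes were at least 2-fold higher in cluster 1 in every library (0.628%) and 148 at least 2-fold lower (0.949%). S1pr1, Klf3, Tcf7, Cd7, Gzmm, Cxcr3 and the gut-homing integrin gene Itgb7 were among the higher genes. Cxcr3, the receptor for interferon-induced chemokines, had 121 to 160 CPM in cluster 1 and 21.1 to 35.2 in cluster 0. The lower genes included Ccl1, Csf2 (GM-CSF), Tnfrsf4 (OX40), Il1r2 and Serpine2. Tnfrsf4 had 12.5 to 86.0 CPM in cluster 1 and 174 to 535 in cluster 0. Of 15 exhaustion genes in the table, 5 were 2-fold lower in cluster 1 and none higher (median log2 difference -1.23 against -0.05 over all 8925 genes). Of 14 stem or progenitor genes, 2 were 2-fold higher and 1 lower (median 0.146). Prf1 (perforin) had 42.6 to 96.4 CPM in cluster 1 and 197 to 410 in cluster 0, and Ifng (interferon gamma) had 106 to 286 against 307 to 1156.

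In every library, 7 genes were at least 2-fold above both neighbours (0.0449% of 15601) and 0 were 2-fold below both (percent called 0). The genes that led by the smallest library difference were Rap1gap2, a regulator of the small GTPase Rap1, and the granzymes Gzma and Gzmm. Rap1gap2 had 13.4 to 29.6 CPM in cluster 1, 1.02 to 3.40 in cluster 7 and 1.80 to 4.43 in cluster 0. Gzmm had 31.0 to 65.8 CPM in cluster 1, 7.61 to 17.5 in cluster 7 and 3.63 to 6.77 in cluster 0. Gzma had 755 to 2318 CPM in cluster 1, against 19.97 to 686 in cluster 7 and 305 to 777 in cluster 0. Its lowest male library (755 CPM, library 3) was under the highest cluster 0 library, although within each library cluster 1 was higher. Other clusters were compared the same way, and cluster 9, which carries interferon-stimulated genes, was closest, with 10 genes 2-fold higher and 103 lower in cluster 1 (Pearson r 0.977 across 8620 genes of mean log2 CPM, which are not independent).

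The cluster was high in Ccl5 and low in several granzymes. Ccl5, a chemokine made by effector and memory T cells, had 9732 to 12010 CPM in cluster 1, 1616 to 2429 in cluster 7 and 5535 to 7941 in cluster 0, and its mean was the highest of the 11 clusters. Gzmb, the main cytotoxic granzyme, had 1495 to 2876 CPM in cluster 1, 444 to 992 in cluster 7 and 1922 to 6057 in cluster 0, so it overlapped cluster 0. The granzymes Gzmd, Gzmc, Gzme and Gzmf were among the genes lowest in cluster 1 against the mean of the 10 other clusters, with mean log2 differences of -3.36, -3.33, -3.12 and -3.23. Among the genes highest by that measure were Gzmm (2.43), S1pr1 (2.12), Klf3 (1.92), Cxcr3 (1.81) and Itgax (1.78), the gene of the CD11c integrin chain. A mean of 10 clusters can hide 1 with as much. Klf3 had 85.05 to 195 CPM in cluster 1 and 116 to 199 in cluster 7, so it overlapped cluster 7, as S1pr1 did. Ifitm1, an interferon-induced membrane protein gene, ranged from 408 CPM in male library 4 to 2836 in female library 2. In the sex test given below, edgeR called 0 of 4 Ifitm genes, of which 3 were lower and 1 higher in males. DESeq2 called 1, lower in males, and limma-voom 0.

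Within the cluster, single cells were spread along the same axis. Each cell with at least 3000 UMIs was thinned to 3000, and the share of its axis UMIs on genes higher in cluster 0 was taken. Ribosomal protein genes and unnamed gene models were left out of this score. The median share was 85.2% in cluster 1, 50% in cluster 7 and 95.9% in cluster 0. Of 3127 cluster 1 cells, 13.8% lay within the range of cluster 7 (up to its 95th percentile), 43.4% in the gap and 42.8% at or above the 5th percentile of cluster 0. By library, the share within the cluster 7 range was 1.83%, 0.901% and 5.29% in female libraries 2, 5 and 6 and 31.7%, 19.2% and 10.8% in male libraries 1, 3 and 4. By this cut, every male library held a larger share of such cells than any female one. The cut was set on the cluster 7 cells of all libraries together, most of which were male. Within single libraries, the 95th percentile of cluster 7 was 75.8%, 81.3% and 71.2% in female libraries 2, 5 and 6. It was 65.8%, 69.5% and 71.3% in male libraries 1, 3 and 4. The part of the pooled cut in this split by sex was not tested.

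**Figure D2:**
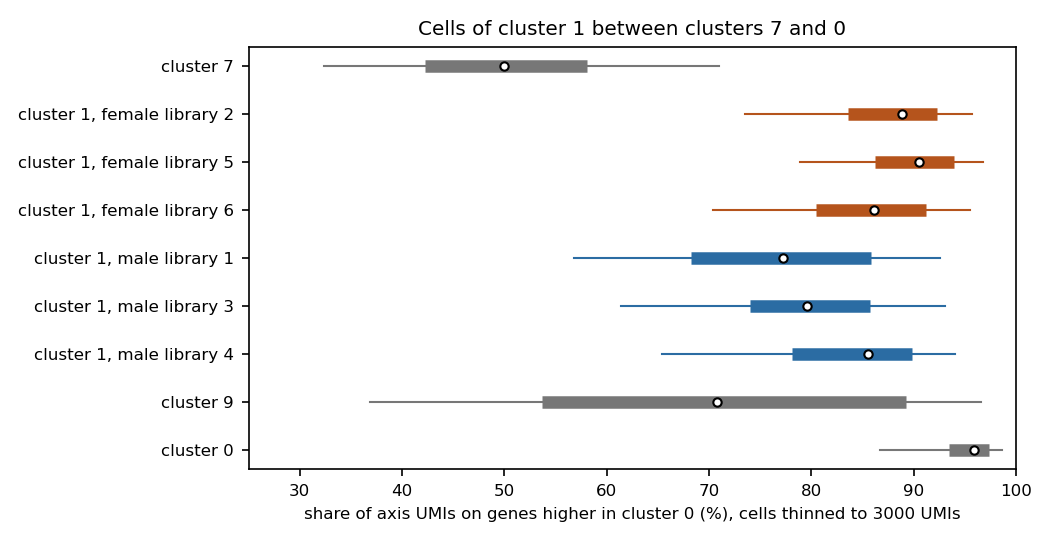
Share of axis UMIs on genes higher in cluster 0 (horizontal axis, %) for cells thinned to 3000 UMIs. Thin lines run from the 5th to the 95th percentile of cells, thick bars from the 25th to the 75th, and points are medians, with medians of 50% in cluster 7 and 95.9% in cluster 0.

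Cells with a Tcf7 UMI had fewer effector transcripts than cells without one. Of 1032 Tcf7-positive and 2095 Tcf7-negative thinned cells, Gzma was found in 28.1% and 48.6%, Ccr2 in 36.3% and 52.1% and S100a6 in 80.0% and 88.3%, lower in Tcf7-positive cells in 6 of 6 libraries for each. S100a4 was found in 53.3% and 70.3%, lower in 5 of 6 libraries. S1pr1, at 42.4% and 29.7%, went the other way in every library. Tcf7-positive cells with S100a4 were common, since 53.3% had a UMI of both. Without the thinning, Tcf7 was found in 44.3% of cluster 1 cells, and 4.77% of thinned cluster 0 cells had it against 33.0% in cluster 1. These shares count cells with a UMI and not cells that express a gene, and doublets were not removed.

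Cluster 1 also differed between the sexes. By library, the median position between clusters 7 and 0 was 0.630, 0.678 and 0.623 in female libraries 2, 5 and 6 and 0.444, 0.429 and 0.547 in male libraries 1, 3 and 4. Every male library had a lower position than any female one. The means were 0.644 ± 0.0298 in females and 0.473 ± 0.0642 in males (exact two-sided permutation test p = 0.10, the smallest possible with 3 against 3). The neighbour clusters enter each position and come from the same libraries.

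edgeR's quasi-likelihood test on the summed counts tested 9234 genes in cluster 1. At an adjusted p under 0.05, 148 genes were male-high (1.60%) and 203 female-high (2.20%), of which 144 and 198 were outside the sex-linked lists used to check the labels. Xist had 785, 723 and 794 CPM in female libraries 2, 5 and 6 and 0 in each male library. Ddx3y had 98.5, 95.6 and 107 CPM in male libraries 1, 3 and 4 and 0 in each female library, so the cells matched their labelled sex. Without 1 library the 342 calls outside these lists became 112 (male library 1), 194 (female library 2), 174 (male library 3), 385 (male library 4), 55 (female library 5) or 701 (female library 6). With cells thinned to 3000 UMIs it was 158. Cells of the male libraries had fewer UMIs, and the part of this in the result was not tested beyond that.

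S100a4, S100a6, Ccr2, Gzma and Lgals1 fell in males. S100a4 had 1907, 1622 and 1563 CPM in female libraries 2, 5 and 6 and 686, 642 and 779 in male libraries 1, 3 and 4. No male library reached a female one, and the log2 difference, male minus female, was -1.27 ± 0.11 (SE; adjusted p = 2.0e-07). S100a6 had 2947, 2769 and 2709 CPM in females and 1451, 1684 and 1616 in males (-0.83 ± 0.09, adjusted p = 2.8e-05), again without overlap. Ccr2 had 429, 417 and 439 against 212, 258 and 279 CPM (-0.78 ± 0.11, adjusted p = 2.5e-04). Gzma had 2471, 2154 and 2389 against 1191, 801 and 1156 CPM (-1.15 ± 0.13, adjusted p = 1.4e-04), and it lost its call in 2 of 17 alternatives. Lgals1 (galectin-1) had 2352, 2256 and 1802 against 1090, 1220 and 1165 CPM (-0.88 ± 0.10, adjusted p = 5.6e-05). Gzma and Lgals1 were named by a rule that asked for no overlap, so its absence is no added support for them. Over all 9234 genes tested, 972 had every male library above every female one and 974 the reverse.

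Other female-high genes by the same rule were Gcnt1, Anxa1 (annexin A1), Ptms, S100a11, Lgals3, Runx2, a transcription factor of the RUNX family, Adam8, Hif1a, the hypoxia-response factor, and Cox17. Their log2 differences ran from -0.63 (Cox17) to -1.68 (Anxa1). Of 15 S100, annexin and galectin genes tested, 9 fell and none rose in males (list median -0.65 against -0.00013 over all genes). Of 24 effector genes, 8 fell and none rose (median -0.46), among them Id2, Klrc1 and Serpinb6b. Chemokine and other trafficking receptors were split, since 4 of 12 fell and none rose while 6 were higher and 6 lower in males (median -0.0040). Of 15 exhaustion genes, 7 fell and none rose (median -0.71), such as Lag3 (-1.43 ± 0.21), Cxcr6 (-1.17 ± 0.18) and Cd160 (-0.71 ± 0.12). Of 26 cytoskeleton and adhesion genes, 8 fell and none rose (median -0.30), such as Actg1, Capg, Vim and Crip1. Of the list members given as examples here, Id2 and Actg1 were called in all 17 alternatives and the others in 14 to 16.

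Bcl2 and 4 of 13 naive or central memory genes rose in males. Bcl2, which protects cells from death, had 269, 234 and 320 CPM in female libraries 2, 5 and 6 and 554, 655 and 477 in male libraries 1, 3 and 4. The log2 difference was 1.04 ± 0.13 (adjusted p = 2.0e-04). Bcl2 was named by the rule that asked for no overlap. It was counted in the list of survival genes, where it alone rose, Bak1 fell and 9 of 12 were lower in males (median -0.09). Lef1, a partner of TCF-1, had 66.2, 54.5 and 79.6 against 106, 113 and 92.7 CPM (0.66 ± 0.13, adjusted p = 0.0083), and its call was lost without female library 5 (adjusted p = 0.11). Klf3 had 104, 89.1 and 148 against 206, 207 and 168 CPM (0.79 ± 0.16, adjusted p = 0.02). This call held in 11 of 17 alternatives and was lost without male library 1 or 3 or female library 2 or 5 (adjusted p = 0.064, 0.055, 0.098 and 0.061). Il7r, the receptor for interleukin-7, gave 0.47 ± 0.13 (adjusted p = 0.047), a call that held in 7 of 17 alternatives and, among single libraries, survived only the removal of male library 4 (adjusted p = 0.10 to 0.25 without each of the others). With Txk these were the called members of the naive or central memory list, of which none fell (median 0.66), and DESeq2 called 6 and limma-voom 3. Of 37 ribosomal protein genes, 12 rose and none fell (median 0.30), led by Rpl12 (called in 17 of 17 alternatives) and Rpl5 (13 of 17). Among the 144 male-high genes outside the sex-linked lists, the naming rule by p also gave Snhg12, Clec2i, Cbx7, Asap1, Lncpint, Gimap7, Hdgfrp3, Chka and Mrpl23.

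Genes that report on handling and RNA quality were mostly higher in males. Of 13 mitochondrially encoded genes, 11 were higher in males and 2 were called (mt-Nd1 and mt-Nd2, in 11 and 10 of 17 alternatives), while the median share of mitochondrial UMIs per cell overlapped between the sexes. Of 14 heat shock genes, 12 were higher in males and edgeR called 0 (5 at an unadjusted p under 0.05; 0 by DESeq2 and by limma-voom). Across the 9234 genes tested, 1584 outside the sex-linked lists had an unadjusted p under 0.05 by edgeR. The heat shock list summed to 4740 to 6072 CPM in females and 6198 to 6637 CPM in males, without overlap. Of 16 immediate-early genes that respond to dissociation, 14 were higher in males and 1 was called (Socs3, 0.95 ± 0.17, adjusted p = 0.011). The call of Socs3 was lost without female library 5 or 6 (adjusted p = 0.055 and 0.096). The part of these genes in the sex results was not tested.

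Tcf7 itself did not pass the test. It had 105, 69.5 and 179 CPM in female libraries 2, 5 and 6 and 242, 188 and 143 in male libraries 1, 3 and 4, and the ranges overlapped (0.75 ± 0.43, adjusted p = 0.49). Slamf6 had 121, 107 and 121 against 133, 128 and 123 CPM, without overlap but not called (adjusted p = 0.51), and Cd8b1 overlapped (-0.15 ± 0.09, adjusted p = 0.46). Neither did whole lists: edgeR called 0 of 41 interferon-stimulated genes, while 8 had an unadjusted p under 0.05 and were higher in males, DESeq2 called 1 and limma-voom 0. edgeR also called 0 of 25 proliferation genes (3 with an unadjusted p under 0.05, 0 by DESeq2 and 0 by limma-voom). It called 0 of 17 glycolysis genes, with 7 under that p, 1 by DESeq2 and 0 by limma-voom. For 35 respiratory chain genes it called 0, with 15 under that p and lower in males, and 0 by either other tool. Beside these counts, 1584 genes outside the sex-linked lists were under that p among the 9234 genes tested.

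**Figure D3:**
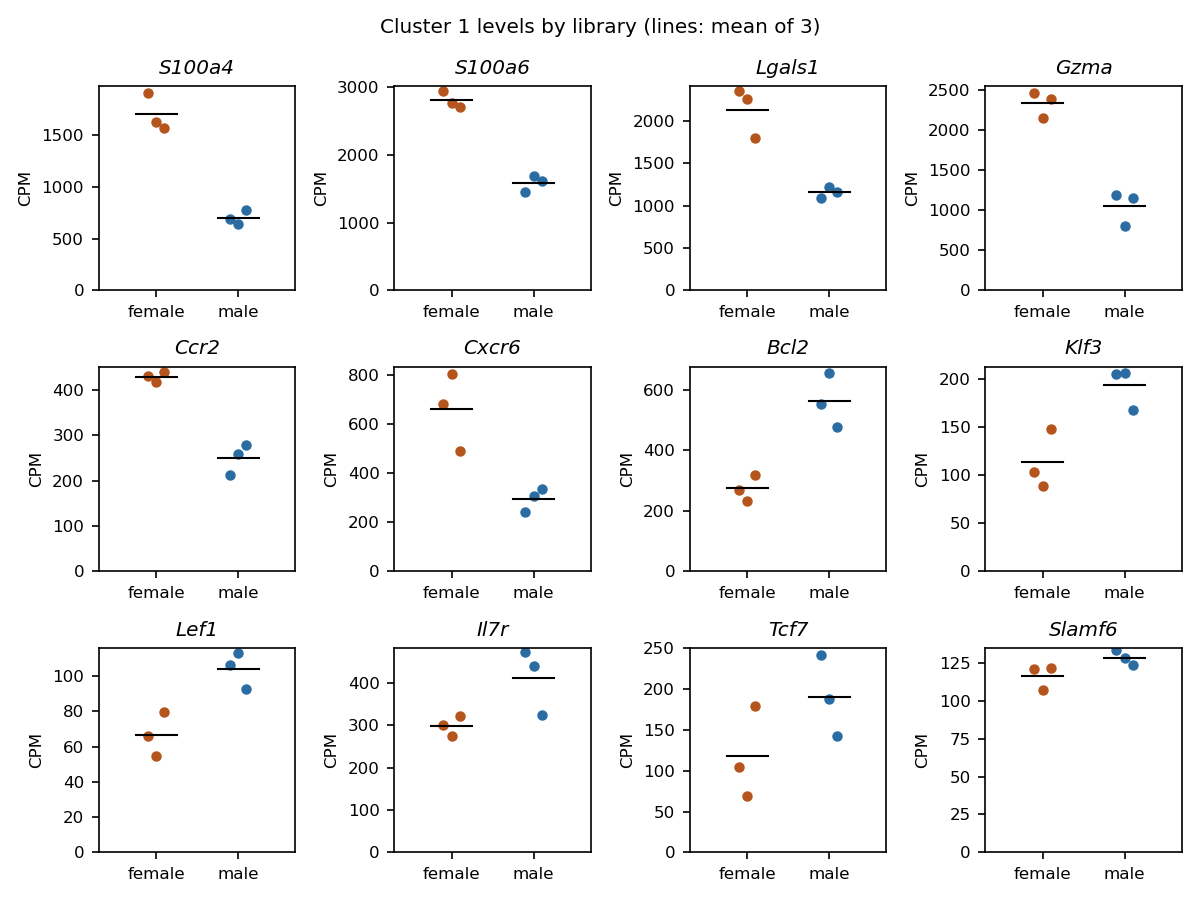
Level in cluster 1 (CPM, vertical axes) of 12 genes in 3 female and 3 male libraries, 1 point a library, with lines at the mean. Points of the sexes do not overlap for the genes other than Tcf7, and Slamf6 and Tcf7 were not called. For Lgals1, Gzma, Bcl2 and Lef1 the absence of overlap was a condition of the naming rule. Over all 9234 genes tested, 972 had every male library above every female one and 974 the reverse.

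The genes that separate clusters 7 and 0 followed the same direction. Of 250 genes higher in cluster 7 that could be tested, 234 were higher in males, 50 were called so and 0 were called higher in females (1 at an unadjusted p under 0.05; 0 by DESeq2 and by limma-voom). Of 352 genes higher in cluster 0, 336 were lower in males, 113 were called lower and 0 higher (1 at an unadjusted p under 0.05; 0 by DESeq2 and by limma-voom). The median log2 difference was 0.53 and -0.52 on the 2 sides, against -0.00013 over all genes. Among the other 8632 genes, 98 called genes were male-high and 90 female-high. The shares of cells in the cluster 7 range were scored from these same genes and are no separate measure of composition. Fewer cells of 1 state and less RNA per cell cannot be told apart in sums.

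Cluster 1 cells were then split in 3 ranges by their UMIs of 7-high genes out of 3000 (limits 22.8 and 31.5). This comparison was chosen after the data were seen and holds only the cluster 7 side of the position closer. A gene that is itself 7-high, such as Bcl2 (4.83% of those UMIs), is held in part by its own counts, so its values are not given, although the counts of calls include such genes. Sex calls were 23 of 6897 genes in the low range (0.333%), 97 of 7006 in the middle range (1.38%) and 180 of 6995 in the high range (2.57%). S100a4 was lower in males in each range (-0.64, -1.11 and -1.56, adjusted p = 0.0038, 1.9e-04 and 1.4e-13). Ccr2 was called in the middle and high ranges (-0.86 and -1.08) but not in the low one (-0.07, adjusted p = 0.94). Gzma was called in the high range (-1.53, adjusted p = 5.7e-04), while it gave -0.49 and -1.28 in the low and middle ranges (adjusted p = 0.86 and 0.44). The high range held 66 to 83 cells per female library and 197 to 390 per male library. Genes higher in cluster 0 were not held by the split. Whether the sexes had the same position within a range was not tested, so these differences are not free of position.

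The sex difference was next set against that of the neighbours, with the library as a block. The same test called 14 genes in cluster 7 (0.168%), 14 in cluster 0 (0.139%) and 274 in cluster 9 (3.41%). Cluster 7 held 126, 126 and 96 cells in female libraries 2, 5 and 6 and 713, 269 and 422 in male libraries 1, 3 and 4. The SE of S100a4 was 0.43 in cluster 7 and 0.34 in cluster 0 against 0.11 in cluster 1. A low count is therefore not an absence of sex differences. The difference of sex effects, cluster 1 minus cluster 7, was called for 40 genes toward males (0.428% of 9340) and 16 toward females (0.171%). Against cluster 0 it was called for 43 toward males (0.425% of 10115) and 114 toward females (1.13%). Against cluster 9, a comparison added after the data were seen, it was called for 14 of 9013 genes (0.155%). Without 1 library the 56 genes against cluster 7 became 8 (male 1), 11 (female 2), 12 (male 3), 15 (female 5) or 92 (female 6), and 54 without male 4. The 157 against cluster 0 became 70 (female 2), 59 (male 3), 295 (male 4) or 30 (female 5), and 120 or 121 without male 1 or female 6.

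S100a6 and Bcl2 were called against both neighbours. S100a6 gave a log2 difference, male minus female, of -0.24 in cluster 7 and -0.24 in cluster 0, neither called, against -0.83 in cluster 1. The difference was -0.59 ± 0.12 (adjusted p = 0.019) against cluster 7 and -0.57 ± 0.10 (adjusted p = 0.005) against cluster 0. Bcl2 gave 0.41 in cluster 7 and 0.01 in cluster 0 against 1.04 in cluster 1, and the differences were 0.60 ± 0.12 (adjusted p = 0.0091) and 1.05 ± 0.11 (adjusted p = 8.7e-05). Txk and Cd160 were also called against both. Lef1 and Klf3 were called against cluster 7 (0.60 and 0.77, adjusted p = 0.022 and 0.02), where both were near 0. DESeq2 called none of these 6 genes against cluster 7 (adjusted p = 0.073 for S100a6, 0.083 for Bcl2, 0.526 for Txk, 0.469 for Cd160, 0.471 for Lef1 and 0.099 for Klf3). They held in 7 to 10 of 14 alternatives there, and each was lost without male library 1 or 3 (for S100a6, adjusted p = 0.09 and 0.28, and for Bcl2 0.098 and 0.15). Other removals lost calls as well. Of the 6 fits that left out a library, Bcl2 and Klf3 were called in 3, S100a6, Txk and Lef1 in 2 and Cd160 in 1. Against cluster 0, Bcl2 and Cd160 held in 14 of 14 alternatives, and S100a6 and Txk in 13 (adjusted p = 0.068 and 0.051 without female library 5). Against cluster 0, the male minus female difference was more negative in cluster 1 for Lgals1 (by -0.69), Cxcr6 (-0.80), Capg (-0.79) and Pdcd1 (-1.01), each called in 14 of 14 alternatives. Of 13 stem or progenitor genes, Tcf7, Cd9, Cd28 and Id3 were called against cluster 0, all toward females. Tcf7 gave 1.497 in cluster 0 and 0.75 in cluster 1, neither called, and the difference was -0.67 ± 0.15 (adjusted p = 0.019). These 4 calls held in 7 or 8 of the alternatives that gave a value, and DESeq2 called none of them (adjusted p = 0.071 for Tcf7, and no value for Id3). For Tcf7 the call was lost without male library 1 or female library 2, 5 or 6 (highest adjusted p = 0.12). S100a4 differed from neither by this test (adjusted p = 0.82 and 0.58), and Gzma did not either (adjusted p = 0.86 and 0.60). Against cluster 9 neither S100a6 nor Bcl2 differed (adjusted p = 0.92 and 0.14), and Gadd45g, Prf1 and Egr1 led the 14 genes (1.21, 0.85 and 0.80).

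**Figure D4:**
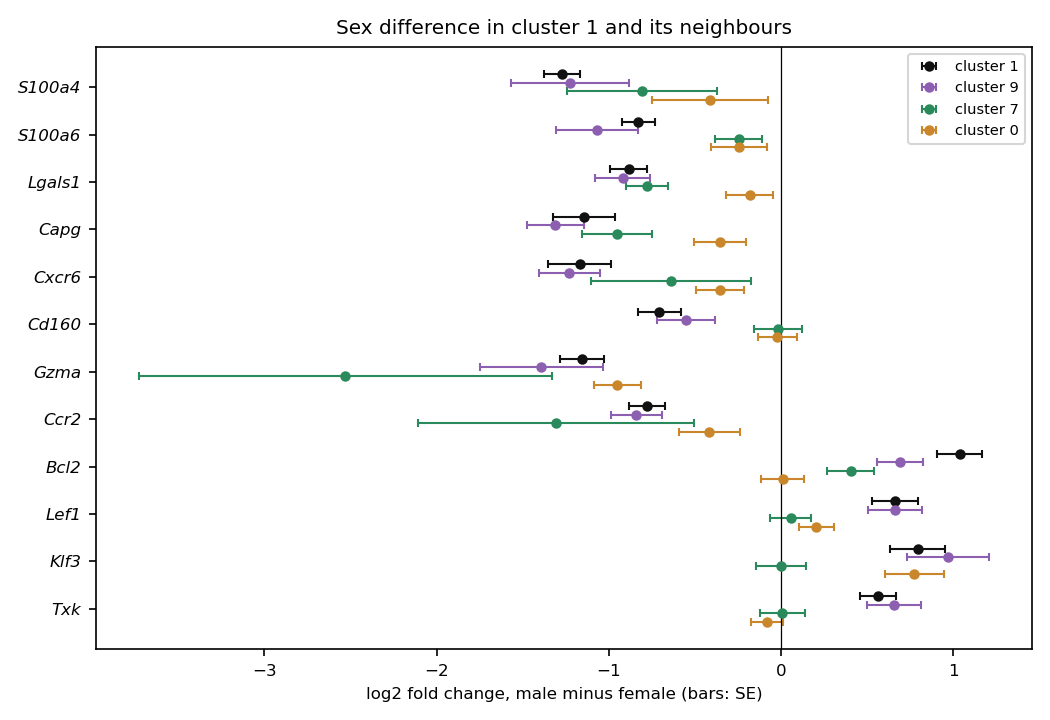
Log2 fold change, male minus female (horizontal axis), of 12 genes in clusters 1, 9, 7 and 0, with bars for the SE of edgeR's fit. S100a6 lies at -0.83 in cluster 1 and at -0.24 in clusters 7 and 0. S100a4 lies at -1.27 ± 0.11 in cluster 1, -0.81 ± 0.43 in cluster 7 and -0.41 ± 0.34 in cluster 0. Its SE bar in cluster 1 meets that of cluster 7 but not that of cluster 0.

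Tumour, B cell and stromal markers were low in cluster 1, while natural killer and myeloid genes were higher. Of 7 tumour or epithelial genes in the table, Krt14 and Krt19 had 0 counts, and the list summed to 4.91 to 11.4 CPM in females and 5.10 to 9.87 in males. The 16 myeloid genes summed to 211 to 247 and 196 to 222 CPM, with Cst3 the highest, and 1 of 6 tested differed by sex (Itgam, lower in males). The 3 B cell genes summed to 9.38 to 17.3 and 7.28 to 10.5 CPM, with Pax5 at 0. The 14 natural killer or innate genes summed to 411 to 495 and 328 to 433 CPM, and their largest member was Cd7, which T cells also carry, at a mean of 199.5 CPM against 129 in cluster 7 and 28.6 in cluster 0. Of 10 tested, 1 was called, the low gene Klra9 (0.468 to 2.19 CPM in females and 3.88 to 5.33 in males, adjusted p = 0.042, called in 6 of 14 alternatives). The 7 CD4 or regulatory T cell genes summed to 76.3 to 95.3 CPM in females and 44.9 to 54.0 in males, without overlap. Of these, 3 were tested and 2 fell in males, Ikzf4 (-1.30 ± 0.21, adjusted p = 0.0014) and Il2ra (-0.75 ± 0.15, adjusted p = 0.0081), the interleukin-2 receptor chain that activated CD8 T cells also carry. Cd4 itself was at 0 to 0.158 CPM and Foxp3 at 0 to 4.24 CPM. The 8 fibroblast or endothelial genes summed to 13.2 to 23.4 and 24.0 to 29.8 CPM, with Dcn and Kdr at 0. Their part in the sex results was not tested.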

How the data were processed

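The authors deposited a table of raw counts (UMIs) of 15601 genes for all cells, and metadata in other units (cluster number, sex, genes per cell). Per the submitters' processing notes, Cell Ranger and Seurat were used with the mouse build mm10; the sources used here do not give their versions, the filters or the treatment of doublets. Doublets were not removed. Counts of a cluster were summed per library, taken from the number after each barcode. Members and gene lists (36 lists) were chosen with earlier results of these data known. Sums were compared with edgeR 4.0.16 (R 4.3.3; TMM, low-count filter, quasi-likelihood test, Benjamini-Hochberg adjustment over all genes tested), with limma 3.58.1 and DESeq2 1.42.0 as alternatives. CPM of the cluster comparisons are scaled over all cluster and library sums, and those of the sex test over the 6 sums of cluster 1, so they differ slightly. Contrasts between clusters are descriptions on log2(CPM + 1). Named genes were the 6 markers, then up to 14 called genes per direction by p with at least 20 CPM and no overlap between sexes, up to 4 members per list by p, 12 per direction and contrast by the smallest library difference, and 6 per difference of sex effects. Genes outside this rule (such as Prf1, Ifng, Pdcd1 and Gzmb) were chosen after their values were seen. On simulated counts the tests recovered the planted changes, which were larger than many of the changes called here. The simulated counts held no library effect, so they do not show how the tests do on smaller changes or on uneven libraries. Promoter windows and positions came from RefSeq, GRCm38.p6.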

Additional observations from a re-analysis of the deposited data

Results flagged for a closer look

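The sex difference in cluster 1 differed from that in a neighbouring cluster, by edgeR's test of the difference with the library as a block, for 56 genes against cluster 7, 157 against cluster 0 and 14 against cluster 9. The genes leading the comparison with cluster 7 were Fam101b (2.99 on the log2 scale, male minus female in cluster 1 less that in cluster 7), Tmem108 (2.97), Irs2 (1.95), Ssbp2 (1.43), Itga4 (0.76) and Gzmf (-1.82). Fam101b and Tmem108 were low genes, at 3.74 to 5.86 and 0 to 1.17 CPM in females. Gzmf and Itga4 were not called by sex within cluster 1 itself. Against cluster 0 the leading genes were Lilrb4a (1.19), Bcl2 (1.05), Cxcr6 (-0.80), Capg (-0.79), Lgals1 (-0.69) and Cd160 (-0.69).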

How the results depend on the processing

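No paired analysis was possible because the library numbers could not be tied to the replicate numbers of the labels. The 342 genes called by sex in cluster 1 outside the sex-linked lists became 663 without a filter on low counts, 158 with cells thinned to 3000 UMIs, 202 with equal cells per library, and 17, 89 and 174 in the low, middle and high ranges of 7-high UMIs. Leaving out a single library gave 112 (male 1), 194 (female 2), 174 (male 3), 55 (female 5) or 701 (female 6). With DESeq2, limma-voom and the other settings run, 261 to 442 were called. The 56 genes that differed from cluster 7 became 5 with DESeq2, 99 without a filter and 23 thinned, and 8, 11, 12, 15 and 92 without male 1, female 2, male 3, female 5 and female 6. The 157 against cluster 0 became 59 with DESeq2, 322 without a filter and 88 thinned, and 70, 59, 295 and 30 without female 2, male 3, male 4 and female 5. The DESeq2 calls against cluster 7 included Ccr7, Fam101b, Il4ra and Irs2, and the cause of each shift was not tested. Genes 2-fold apart in every library fell from 296 to 159 (log2(CPM + 5)) or 182 (at least 20 CPM) against cluster 7, and from 246 to 132 or 158 against cluster 0. The 20 CPM minimum leaves out low genes by its construction, and the cause of the other shift was not tested. Without TMM the totals were 312 and 233, but the direction moved. Cluster 1 then had 235 genes higher and 77 lower against cluster 7, and 110 and 123 against cluster 0. No named gene changed direction between a call and another setting. The position of cluster 1 stayed between 0.507 and 0.586, and was lower in males under every setting run.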
